A study of Mus musculus with 29 samples.

Results

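Gene expression 36 h after transfection of a synthetic let-7b microRNA was compared with that after a negative control oligonucleotide in C2C12, a line of mouse muscle precursor cells that divide while serum is plentiful and form multinucleate myotubes once it is taken away. The comparison used 9 of the 29 arrays of the series. These were 3 arrays labelled Let-7b over-expression and 6 labelled as AllStar control, of which 3 were technical replicas of the other 3. Each control array was averaged with the replica of its own number, so that 3 Let-7b values were set against 3 control values for each gene. All of these cells were at passage 27 and received 50 nM of a Qiagen mimic or of AllStar with the HiPerFect lipid reagent, in growth medium and below full confluence. The labels describe repeated independent experiments and name a single cell line, so the spread between values is that between repeats of 1 line. The same series holds 18 arrays of 6 other mimics (miR-365, miR-145, miR-34a, miR-29a, miR-22 and miR-1, with 3 arrays each), and these served as a second reference for what a transfected mimic does in these cells.

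MicroRNAs are short RNAs that are cut from hairpin precursors by Drosha and then by Dicer, loaded with the help of TARBP2 into an Argonaute protein, and guided to messenger RNAs that pair with their seed. Pairing in the 3′ untranslated region shortens the life of the messenger and lowers its translation. The let-7 family is scarce in embryonic cells and abundant in differentiated tissue, and it is known for holding down Ras genes, cell cycle genes, the oncofetal genes Hmga2, Lin28b and Igf2bp1, and Dicer itself.

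The family shares its seed, here bases 2 to 8 in capitals, and the sequences are shown because any messenger that answers to the mimic through its seed would answer to the cells' own family members too. Mature sequences were taken from RefSeq (GRCm38.p6), where let-7b-5p lies at chr15:85707325-85707346 on the forward strand in the hairpin gene Mirlet7b. The seed was found in 11 mature microRNAs from 13 hairpins among 1738 mature names listed, and the matching target letters on a messenger, written as DNA, are CTACCTC. Outside the seed the family members below differ from let-7b at a few bases, while miR-22, miR-29a, miR-34a and miR-365 carry other seeds. Sequences of miR-1 and miR-145 are not shown, and their seeds were not compared here.
let-7b-5p: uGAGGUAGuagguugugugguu
let-7c-5p: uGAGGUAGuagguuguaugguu
let-7a-5p: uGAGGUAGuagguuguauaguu
let-7i-5p: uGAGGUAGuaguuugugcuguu
miR-98-5p: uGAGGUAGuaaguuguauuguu
miR-22-3p: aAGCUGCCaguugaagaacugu
miR-29a-3p: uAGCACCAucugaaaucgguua
miR-34a-5p: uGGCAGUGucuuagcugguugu
miR-365-3p: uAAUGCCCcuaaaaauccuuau
The labels name the mimics without giving their letters, so these are the natural mature sequences of the names.

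Values were log2 intensities for 19938 genes, with a median of 7.83. Array medians lay between 7.24 and 7.39. The median of probe sets with no listed gene, 6.67, was taken as a guide to background. The arrays do not read mature microRNAs, and of 10 measured let-7 precursor genes 0 were called and 0 had an unadjusted p under 0.05 in limma's fit, so the arrays hold no direct reading of the transfected RNA. Of 9 measured myoblast markers 8 lay above background, Myod1, Des and Cdh15 among them, as the label of a myoblast line calls for. Of 8 blood and endothelial markers 2 did (Cd68 and Cd3e), and of these 8 none was called. As in any bulk sample, fewer cells of a kind and less RNA per cell cannot be told apart.

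Let-7b lowered and raised similar numbers of genes. Of 19938 genes 2176 (10.9%) differed from the control at a Benjamini-Hochberg adjusted p under 0.05 in limma, 1089 (5.46%) of them lower and 1087 (5.45%) higher. The median difference over all genes was 0.01. Most changes were small, and 34 genes were at least 2-fold lower and 45 at least 2-fold higher. Among the called genes 2158 had all 3 Let-7b values on 1 side of all 3 control values. This separation was seen in 27.6% of all genes tested. Without Let-7b replicate 3 the count of called genes was 1380. The other mimics changed between 1365 (miR-145) and 4723 (miR-1) genes against the same 3 control values.

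Set against the mean of the other 6 mimics, Let-7b differed in 3682 genes (18.5%), 2049 (10.3%) of them lower and 1633 (8.19%) higher. Of the 1089 genes below the control, 866 (79.5%) were also called below the other mimics, which is 4.34% of all genes tested. Of the 1087 above the control, 644 (59.2%, or 3.23% of all genes) were also called above the other mimics. A further 437 of the genes above the control were not called against the other mimics. Both comparisons use the same 3 Let-7b values. Among the 866 genes called lower in both comparisons, 294 had all 3 Let-7b values below every control value and every one of the 18 values of the other mimics. Among the 644 called higher in both, 131 had all 3 above them. Genes not called in both comparisons were not counted for this.

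**Figure D1:**
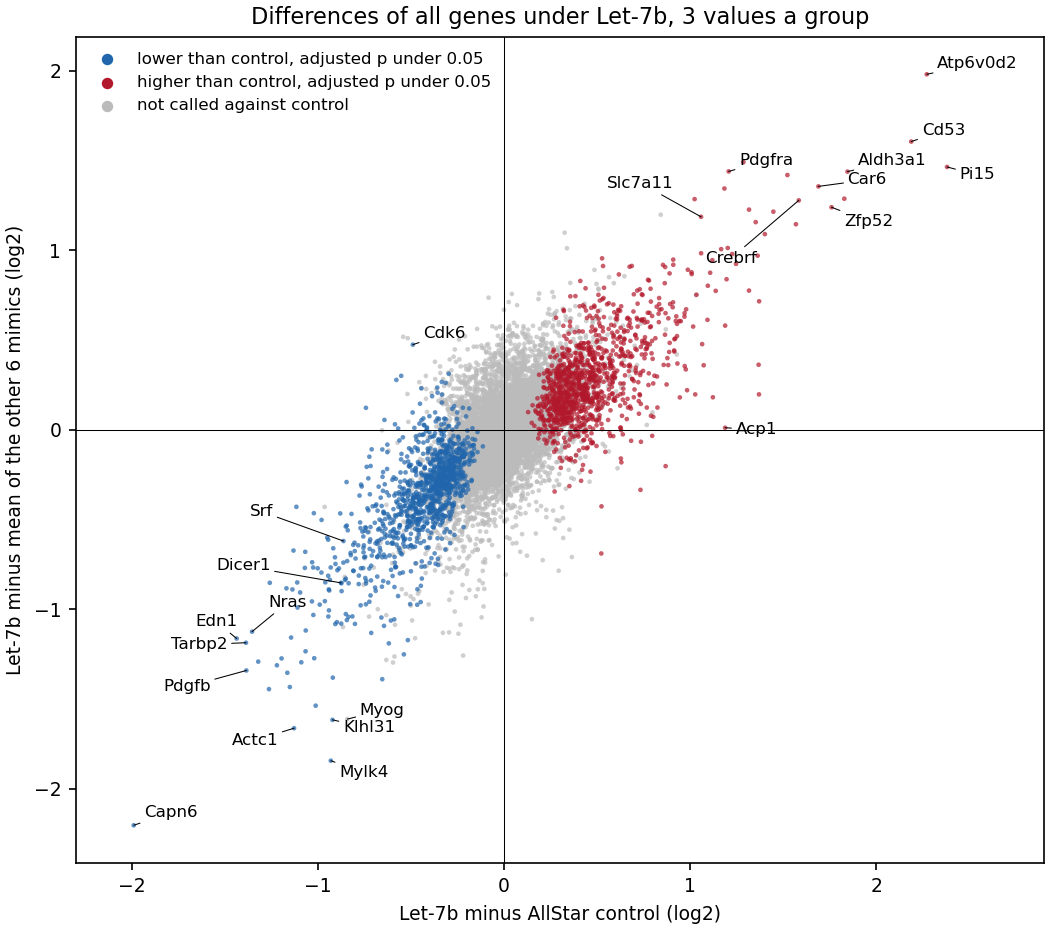
Each point is 1 of 19938 genes, with its log2 difference between Let-7b and the control (x axis) and between Let-7b and the mean of the other 6 mimics (y axis), both from 3 Let-7b values. Blue and red mark the 1089 lower and 1087 higher genes against the control. Capn6 stands alone at the lower left, and Acp1 lies on the line of 0 on the y axis.

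Edn1, Tarbp2, Nras, E2f2, Gatm and Dicer1 had the largest decreases among genes taken as let-7 targets. Of 133 genes listed as known or predicted targets 118 were measured, and 34 of these (28.8%) fell against 5.46% of all genes, while 6 (5.08%) rose against 5.45%. The median difference of the 118 was -0.09, with -0.08, -0.11 and -0.11 in the single Let-7b values, against 0.01 over all genes. The same list had medians between -0.01 and 0.02 under the other 6 mimics. All 118 count here, of which 108 lay above background. The list was chosen with earlier results of these data known, so these shares are a description.

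Among the Ras and growth factor genes of the list 6 of 25 fell (24%, beside 5.46% of all genes) and 2 rose (8%, beside 5.45%). Nras, a Ras GTPase that passes growth factor signals to the MAP kinase cascade, read 9.95, 9.59 and 9.47 under Let-7b in replicates 1 to 3 and 11.17, 10.94 and 10.97 in the control. All Let-7b values lay well below all control values, a 2.55-fold decrease (log2 difference -1.35 ± 0.12 SE, adjusted p = 8.6e-08). Nras was also called lower under miR-1, miR-22, miR-29a and miR-145 (between -0.57 and -0.44) and higher under miR-365 (0.59), and under Let-7b it lay below the other mimics by -1.12 ± 0.09 (adjusted p = 8.5e-09). Edn1, which encodes the secreted peptide endothelin-1, read 7.33, 7.35 and 6.98 against 9.10, 8.20 and 8.66. The groups did not overlap, and the difference was -1.44 ± 0.28 (adjusted p = 0.0012). Gng5, a G protein gamma subunit, fell by 0.64, and Tgfbr1, the type I receptor for TGF-beta, fell by 0.50. The 2 members that rose were Osmr, the oncostatin M receptor (0.56), and Tgfbr3, the betaglycan coreceptor (0.50). The call for Osmr was lost without Let-7b replicate 2, Let-7b replicate 3 or control replicate 1 (adjusted p up to 0.13).

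Cell cycle members of the target list fell in 6 of 16 cases (37.5%, beside 5.46% of all genes) and rose in 0, with a median of -0.19. The same genes had medians from -0.32 (miR-1) to -0.05 (miR-29a) under the other mimics. Against the mean of those mimics 4 were lower under Let-7b (25%, beside 10.3%) and 4 higher (25%, beside 8.19%). E2f2, an activating E2F that drives entry into S phase, read 8.89, 8.94 and 8.80 against 9.59, 10.08 and 9.89 (-0.98 ± 0.15, adjusted p = 0.00013). No Let-7b value of it reached the lowest control value. E2f5, a repressive E2F, fell by 0.76, Cdc34, an enzyme that ubiquitinates cell cycle inhibitors, by 0.60, and the phosphatase Cdc25a by 0.46. Cdk6, the kinase partner of D-type cyclins, read 11.17, 11.26 and 11.19 against 11.67, 11.71 and 11.71 (-0.49 ± 0.08, adjusted p = 0.00016). It fell under each of the other 6 mimics as well (between -1.43 and -0.52), and under Let-7b it lay 0.47 ± 0.06 above their mean (adjusted p = 3.7e-06).

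The oncofetal genes for which let-7 is best known were mostly not called. Of 20 measured, 16 lay above background, and Hmga1 and Igf2bp2 had no value here. Of the 20, 3 fell (15%, above the 5.46% of all genes) and 0 rose. The 3 were E2f6, a repressive E2F (-0.74 ± 0.14), Plagl2, a zinc finger transcription factor (-0.62 ± 0.14), and Igf2bp3, an RNA-binding protein that lay below background in all samples (-0.23). The call for Igf2bp3 was lost under 9 alternatives, 5 of them the omission of single replicates (adjusted p up to 0.17). The median of the 20 was 0.00 to 2 decimals. Hmga2, a chromatin protein and the classic let-7 target, read 11.02, 10.54 and 10.98 under Let-7b and 11.20, 10.37 and 10.41 in the control. The groups overlapped, and the difference of 0.19 ± 0.34 was not called (adjusted p = 0.90). Lin28b, which blocks let-7 maturation, read between 4.99 and 5.25 in all 6 values, under background. Myc (0.10 ± 0.22) and the growth factor receptor gene Igf1r (-0.07 ± 0.08), both expressed, were not called either.

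**Figure D2:**
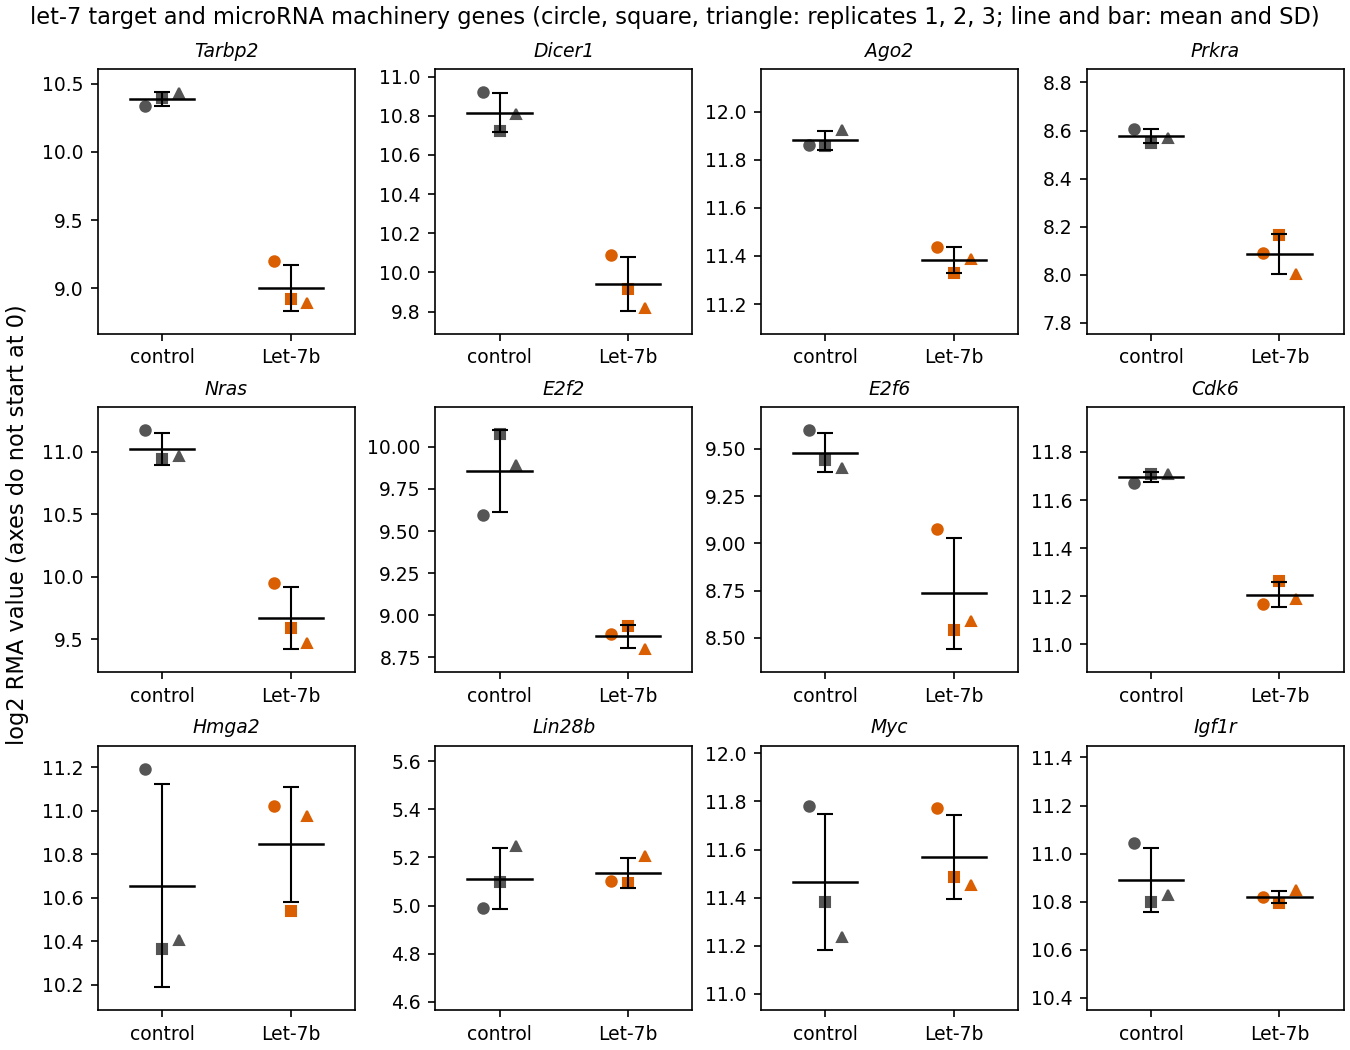
The log2 values of 12 let-7 target and microRNA machinery genes are plotted for the 3 control values (grey) and the 3 Let-7b values (orange), with lines for means and bars for 1 SD. The 8 genes of the upper rows, from Tarbp2 to Cdk6, do not overlap between groups, while Hmga2, Lin28b, Myc and Igf1r do.

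Transcripts of the proteins that make and load microRNAs changed under Let-7b. Of 20 genes for microRNA processing and the Argonaute complex 4 fell (20%, beside 5.46% of all genes) and 2 rose (10%, beside 5.45%), and the 4 encode the Dicer complex that cuts precursors and passes the guide strand to Argonaute. Tarbp2, the RNA-binding partner of Dicer, read 9.20, 8.92 and 8.89 against 10.34, 10.40 and 10.43. The decrease was 2.61-fold (-1.39 ± 0.09, adjusted p = 1.1e-09), and a second probe set of Tarbp2 differed by -1.51. Dicer1, the nuclease itself, read 10.09, 9.92 and 9.82 against 10.92, 10.72 and 10.81 (-0.88 ± 0.10, adjusted p = 4.2e-06). Ago2, the Argonaute that can cut its target, read 11.44, 11.33 and 11.39 against 11.86, 11.86 and 11.93 (-0.50 ± 0.07, adjusted p = 4.7e-05). Prkra, the other double-stranded RNA-binding partner of Dicer, read 8.09, 8.17 and 8.0 against 8.61, 8.55 and 8.57 (-0.49 ± 0.09, adjusted p = 0.00046). In each of the 4 genes the lowest control value stood above the highest Let-7b value.

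All 4 were also called below the other mimics. Tarbp2 lay -1.19 ± 0.07 below the mean of the other mimics (adjusted p = 5.6e-11), Dicer1 -0.85 ± 0.08 (adjusted p = 5.5e-08), Ago2 -0.51 ± 0.05 (adjusted p = 4.9e-07) and Prkra -0.40 ± 0.07 (adjusted p = 0.00011). Tarbp2 was also called lower under miR-22 (-0.52), and Prkra under miR-1 (-0.38). The 2 genes that rose, Tnrc6a (0.38 ± 0.08) and Tnrc6b (0.43 ± 0.09), encode the GW182 scaffolds that bind Argonaute and recruit deadenylases. Tnrc6a was higher under all 7 mimics (between 0.24 and 1.0), and under Let-7b it was not called against the others (-0.18 ± 0.06, adjusted p = 0.057).

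A further 50 genes were listed as having predicted let-7 sites, which were not searched for here. They held 17 that fell (34%, beside 5.46% of all genes) and 2 that rose (4%, beside 5.45%), with a median of -0.18. Without Let-7b replicate 3 the first count was 11. Gatm, which makes the creatine precursor guanidinoacetate, was lowest (-0.94 ± 0.10, adjusted p = 5.8e-07), with 10.94, 10.93 and 10.84 against 11.84, 11.92 and 11.79. The homeodomain factors Pbx3 (-0.73 ± 0.09) and Pbx2 (-0.72 ± 0.11) fell side by side, as did the kinase gene Stk40 (-0.75 ± 0.14). None of these genes had a Let-7b value within its control range.

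The largest decrease of all was in Capn6, a calpain family member without protease activity that is expressed in embryonic muscle. It read 8.17, 8.50 and 8.08 under Let-7b and 10.22, 10.10 and 10.40 in the control, a 3.97-fold decrease (-1.99 ± 0.12, adjusted p = 1.1e-09). Against the other mimics the difference was -2.20 ± 0.09 (adjusted p = 5.3e-13), and miR-22, miR-29a and miR-365 raised the gene above the control. The next largest decrease, that of Edn1, was 2.71-fold.

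Next to Edn1, Tarbp2 and Nras stood Pdgfb, the B chain of platelet-derived growth factor, with 8.51, 8.94 and 8.78 against 10.44, 9.84 and 10.10 (-1.38 ± 0.22, adjusted p = 0.00013). The receptor gene Pdgfra, which binds this family of ligands, went the other way with 9.38, 9.51 and 9.82 against 8.44, 8.41 and 8.25 (1.21 ± 0.11, adjusted p = 1.4e-07). Both groups were fully separated for ligand and receptor, which was a condition for naming them by size. Pdgfra lay above all values of the other mimics (1.44 ± 0.09).

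A pair of enzymes of sialic acid, a sugar that caps cell surface glycans, were among the 20 largest decreases. Cmas, which activates sialic acid for transfer, read 8.53, 8.20 and 8.11 against 9.53, 9.47 and 9.63 (-1.26 ± 0.11, adjusted p = 8.6e-08). Casd1, which acetylates sialic acid, read 8.11, 8.29 and 7.99 against 9.25, 9.21 and 9.35 (-1.14 ± 0.11, adjusted p = 1.4e-07). Dpagt1, which starts the lipid-linked precursor of N-glycans, fell by 1.11. No list of glycan genes was made, so these 3 are given as single genes.

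The remaining large decreases came from many kinds of protein. Tmem198b (-1.32), Clcn5, an endosomal chloride and proton exchanger (-1.26), Mtfr1l, a mitochondrial fission regulator (-1.22), Zdhhc12, a palmitoyltransferase (-1.19), Rnf44 (-1.17), AI987944 (-1.16), Glipr1 (-1.15), Dusp9, a phosphatase of MAP kinases (-1.14), Birc5, the mitotic and survival protein survivin (-1.13), Actc1, cardiac actin (-1.13), Tspan18 (-1.11) and Cmklr1, the chemerin receptor (-1.11), all fell by more than 2-fold. Cmklr1 lost its call without Let-7b replicate 3 or control replicate 1 (adjusted p = 0.065 without the latter), and it was not called against the other mimics (-0.43 ± 0.21, adjusted p = 0.18).

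Cd53, Ptpn22 and Csf2rb were among the 12 largest increases. They are named by that size alone, belong to no list used here and are given as single genes. Cd53, a leukocyte tetraspanin, read 8.95, 9.73 and 10.11 under Let-7b and 7.52, 7.44 and 7.26 in the control, a 4.56-fold increase (2.19 ± 0.28, adjusted p = 1.2e-05). Ptpn22, a lymphoid phosphatase, read 8.47, 7.54 and 8.25 against 6.63, 6.09 and 6.06 (adjusted p = 1.7e-05). Csf2rb, the shared beta chain of the GM-CSF, IL-3 and IL-5 receptors, read 7.49, 7.59 and 8.50 against 6.43, 6.44 and 6.50 (adjusted p = 0.00041). Every Let-7b value was above every control value, which was a condition for naming these genes. Since the control values of Ptpn22 and Csf2rb lay under the background level, no fold is given for them. Ptprc, which encodes the pan-leukocyte antigen CD45, stayed between 5.50 and 5.75 in all 6 values, under background. The median difference of the 8 blood and endothelial markers was 0.12, 0.04 and 0.06 in the Let-7b values and between -0.07 and 0.03 in the control values. The increases were shared in part with other mimics, since Cd53 was also called higher under miR-1, miR-22, miR-34a and miR-365 (between 0.87 and 1.51).

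Pi15, a secreted protein of the CAP family, read 8.63, 9.17 and 9.78 against 6.87, 6.86 and 6.70, a 5.21-fold increase from near background (2.38 ± 0.20, adjusted p = 4.1e-08). It rose further under miR-22 (2.61) and by 1.69 under miR-1. Atp6v0d2, a proton pump subunit known from osteoclasts, read 7.39, 7.76 and 8.86 against 5.98, 5.63 and 5.6 (adjusted p = 1.4e-05), and Mmp13, a collagenase, 7.60, 7.59 and 7.86 against 6.22, 6.22 and 6.26 (adjusted p = 5.4e-08). Both came from below the background level and lay above all values of the other mimics.

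Crebrf, a regulator of the stress-related factor CREB3, read 8.71, 8.89 and 9.20 against 7.56, 7.24 and 7.24 (1.58 ± 0.13, adjusted p = 2.5e-08). The zinc finger gene Zfp52 (1.76 ± 0.12, adjusted p = 1.1e-09) and the secreted carbonic anhydrase gene Car6 (1.69 ± 0.24, adjusted p = 4.4e-05) rose as well, and like Crebrf they lay above every value of the other mimics. Aldh3a1, an aldehyde dehydrogenase (1.85), and Thbd, the anticoagulant receptor thrombomodulin (1.57), completed the list together with Prl2c5 (1.52). Prl2c5 belongs to a family of near-identical prolactin-like genes that the probes may not tell apart, and it lost its call without Let-7b replicate 3, control replicate 2 or control replicate 3 (adjusted p up to 0.087). Acp1, a low molecular weight phosphatase, was picked out after its values were seen. It rose by 1.19 ± 0.08 under Let-7b (adjusted p = 1.1e-09), by 1.1 to 1.29 under each of the other mimics, and differed from them by 0.01 ± 0.06.

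The proliferation genes separated the 2 references. Against the control 5 of 51 DNA replication genes fell and 0 rose (median -0.15), and 4 of 49 mitosis genes fell and 0 rose (median -0.05). Shares of 9.80% and 8.16% stood beside 5.46% of all genes, many of them dimmer than these lists. Without the 40% of genes with the lowest mean, 1275 of 11963 genes fell. Of the DNA replication genes 6 of 50 then fell, and of the mitosis genes 4 of 49. Those that fell included Tk1, the salvage enzyme thymidine kinase (-0.72), Orc6 of the origin complex (-0.50), Cdc25b, a mitotic phosphatase (-0.72), and Birc5. Pcna (-0.03) and Cdk1 (-0.01), abundant markers of cycling cells, were not called.

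Against the mean of the other mimics, 31 of 51 DNA replication genes and 25 of 49 mitosis genes were higher under Let-7b, where 8.19% of all genes were. The list median of DNA replication genes was -1.0 under miR-1, -0.43 under miR-22, -0.13 under miR-29a, -0.46 under miR-34a, -0.12 under miR-145 and -0.41 under miR-365, all against the same controls. The Let-7b median of -0.15 was nearest to those of miR-29a and miR-145. Without Let-7b replicate 1 the count for DNA replication was 15, and without Let-7b replicate 2 that for mitosis was 14.

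In the G1 list 7 of 20 genes fell (35%, beside 5.46% of all genes). In the same list 1 rose (5%, beside 5.45%), namely Tfdp2, an E2F partner (0.40). The list median was -0.17, and under the other mimics it ran from -0.52 (miR-1 and miR-365) to -0.12 (miR-145). Against the mean of those mimics 9 were higher under Let-7b (45%, beside 8.19%) and 5 lower (25%, beside 10.3%). The 7 that fell against the control were E2f2, E2f5, E2f6, E2f4 (-0.56), Cdk6, Cdc25a and Skp2, which targets CDK inhibitors for decay (-0.30). The call for Skp2 was lost without Let-7b replicate 1 or 2 or control replicate 2 or 3 (adjusted p up to 0.091). Cyclin D1 (Ccnd1) read 12.17, 11.76 and 12.08 against 12.15, 11.98 and 12.01 and was not called (-0.05 ± 0.15). Of 9 CDK inhibitor and pocket protein genes 0 fell and 1 rose (11.1%, beside 5.45% of all genes), the pocket protein gene Rbl2 (0.48).

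Many sarcomere genes were lower under Let-7b than under the other mimics, and the muscle actins were lower than in the control. Of 54 sarcomere genes 7 (13%, beside 5.46% of all genes) fell and 0 rose against the control. Against the other mimics 37 (68.5%, beside 10.3%) were lower and 0 higher. The sarcomere median was -0.21, and the single Let-7b values had -0.44, -0.13 and 0.03. Replicate 1 was thus the lowest and replicate 3 lay at the control level. Without Let-7b replicate 1 the median was -0.05 and the counts were 3 and 23, and without control replicate 1 the first count was also 3. The other mimics moved this list the other way or little, with medians from 0.05 (miR-365) to 0.60 (miR-1).

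Actc1, the actin of embryonic and cardiac muscle, read 10.59, 11.04 and 11.06 under Let-7b and 12.13, 12.15 and 11.79 in the control (-1.13 ± 0.16, adjusted p = 3.9e-05). Acta1, the skeletal actin, read 11.35, 11.94 and 12.03 against 12.69, 12.58 and 12.45 (-0.80 ± 0.15, adjusted p = 0.00067). Both actins were separated from the control and from all 18 values of the other mimics. Actn2, Tnnt1, Mybph, Smyd1 and Ldb3, genes of the Z-disc, thin and thick filaments and their assembly, differed by -0.72 to -0.47. All 5 lost the call when single replicates were left out, Actn2 without any 1 of the 6 (adjusted p up to 0.19), Tnnt1 without Let-7b replicate 1 or control replicate 2 (up to 0.073), Ldb3 without control replicate 1 (0.078), and Mybph (up to 0.055) and Smyd1 (up to 0.10) without Let-7b replicate 1 or control replicate 1.

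Actc1 was also among the 10 largest decreases against the other mimics. The genes that follow, in no list used here, were among them too. Mylk4, a kinase of the myosin light chain kinase family, read 7.35, 7.77 and 7.70 against 9.01, 8.11 and 8.50, and lay -1.84 ± 0.17 below the other mimics (adjusted p = 7.1e-08). It was called against the control (-0.93) except without control replicate 1 (adjusted p = 0.069). Klhl31, a muscle kelch protein (-1.62 ± 0.13), Cavin4 of muscle caveolae (-1.54 ± 0.11), and Synpo2l of the Z-disc (-1.39 ± 0.09) followed against the other mimics, with differences from the control of -0.92, -1.01 and -0.65. All 4 genes were below every value of the other mimics. Psmd10, the proteasome chaperone gankyrin, lay below every value of the other mimics as well (-1.38 ± 0.07).

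Of 27 genes for myogenic factors and fusion 2 fell and 2 rose, each 7.41%, near the 5.46% and 5.45% of all genes. The count of decreases was 0 without control replicate 2. Myod1, the factor that sets myoblast identity, read 11.40, 11.71 and 11.32 against 12.10, 12.15 and 11.84 (-0.55 ± 0.14, adjusted p = 0.0085), a call lost without Let-7b replicate 3 or control replicate 2 (adjusted p up to 0.065). Myf5, its relative, fell by 0.34, a call lost without any replicate but Let-7b replicate 1 (adjusted p up to 0.17). The 2 that rose were Cdh2 and Mef2a. Cdh2 kept its call under all 17 alternatives (adjusted p up to 0.00082). The call for Mef2a was lost without Let-7b replicate 2 or 3 or control replicate 3, and with only Let-7b and control values (adjusted p up to 0.18). Myog, which starts differentiation, read 8.16, 9.34 and 9.26 against 9.81, 10.05 and 9.43. It narrowly missed the threshold against the control (-0.84 ± 0.28, adjusted p = 0.055) and lay -1.61 ± 0.21 below the other mimics (adjusted p = 7.2e-06). Replicate 1 was again the lowest. Among inhibitors of myogenesis 4 of 24 fell (16.7%, beside 5.46% of all genes), Id3 (-0.45) and Id2 (-0.36) among them. In the same list 3 rose (12.5%, beside 5.45%), among them the histone deacetylase gene Hdac4 (0.49) and Twist1 (0.43). The count of 4 was 2 without Let-7b replicate 1, Let-7b replicate 3 or control replicate 3.

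Srf and 8 actin cytoskeleton genes fell. Srf, the serum response factor, binds CArG boxes in the promoters of actin and smooth muscle genes. It read 10.59, 10.53 and 10.44 under Let-7b and 11.58, 11.26 and 11.32 in the control (-0.86 ± 0.13, adjusted p = 0.0001). Of 29 genes in this list 9 fell (31.0%, beside 5.46% of all genes) and 0 rose, with a median of -0.18 and single values of -0.20, -0.10 and -0.22. Besides Srf these were the actins Actg2 (-0.47) and Acta2 (-0.18), the calponins Cnn1 (-0.53) and Cnn2 (-0.38), the contractile proteins Myl9 (-0.45) and Myh9 (-0.21), the bundling protein Fscn1 (-0.34), and Tagln (-0.54). Calls were lost when single replicates were left out for Fscn1 (any 1 of the 6, adjusted p up to 0.15), for Myh9 (Let-7b replicate 1 or 3 or control replicate 1 or 3, up to 0.24), for Tagln (Let-7b replicate 1 or 3 or control replicate 3, up to 0.12) and for Acta2 (Let-7b replicate 3, 0.066). Fscn1, Myh9 and Acta2 also lost the call with no variance trend, and Fscn1 and Myh9 with no technical repeats. Myh9 lost it as well with only Let-7b and control values and after further quantile normalization. The count of 9 was 5 without Let-7b replicate 3 and 6 without Let-7b replicate 1 or control replicate 3. Under the other mimics the list had medians between -0.19 (miR-365) and 0.08 (miR-145).

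The CArG box, searched on both strands in RefSeq promoter windows of 300 bases (250 before to 50 after the start), occurred in 254 of 15614 measured genes with a window (1.63%). Among the genes that fell it was found in 27 of 904 (2.99%), and among those that rose in 10 of 887 (1.13%). In the actin list it was found in 5 of 26 genes with a window, 3 of which had fallen, and in the sarcomere list in 7 of 44, again with 3 that had fallen. The 250 bases before the start are shown for 4 of these 6 fallen genes, Srf, Actc1, Acta1 and Myl9, as examples that hold the letters. They were chosen after the matches were seen, and Cnn2 and Ldb3 hold a match too. The CArG letters are in capitals (GRCm38.p6, each read along its gene).
Srf (chr17:46556163-46556412, reverse strand): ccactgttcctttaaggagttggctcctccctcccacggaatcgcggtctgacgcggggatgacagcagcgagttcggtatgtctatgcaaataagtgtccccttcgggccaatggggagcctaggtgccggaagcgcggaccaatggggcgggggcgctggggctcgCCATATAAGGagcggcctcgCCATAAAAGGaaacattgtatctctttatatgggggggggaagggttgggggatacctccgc
Actc1 (chr2:114052876-114053125, reverse strand): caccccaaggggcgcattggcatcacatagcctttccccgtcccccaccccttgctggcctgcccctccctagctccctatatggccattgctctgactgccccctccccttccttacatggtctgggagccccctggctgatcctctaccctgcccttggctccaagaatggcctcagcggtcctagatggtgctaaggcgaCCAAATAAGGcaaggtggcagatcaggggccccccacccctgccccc
Acta1 (chr8:123894776-123895025, reverse strand): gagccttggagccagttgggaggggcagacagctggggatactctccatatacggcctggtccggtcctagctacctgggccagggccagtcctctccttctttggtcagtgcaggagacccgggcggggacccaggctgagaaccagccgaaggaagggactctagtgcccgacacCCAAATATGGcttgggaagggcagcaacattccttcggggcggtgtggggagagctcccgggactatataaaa
Myl9 (chr2:156775214-156775463, forward strand): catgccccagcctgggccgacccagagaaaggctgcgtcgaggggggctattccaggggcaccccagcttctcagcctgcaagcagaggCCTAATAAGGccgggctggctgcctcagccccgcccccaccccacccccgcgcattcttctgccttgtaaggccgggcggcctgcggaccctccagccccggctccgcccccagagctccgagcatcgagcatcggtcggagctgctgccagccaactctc
Srf itself has a pair of boxes close to its start. A match describes these letters and is not shown here to be bound by anything.

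Stress genes of the endoplasmic reticulum rose. When unfolded proteins gather there, the sensors ATF6, IRE1 and PERK raise chaperones, the degradation machinery and the ATF4 branch, of which Ddit3, Atf3 and Ppp1r15a are late members. Of 28 genes on the list for ATF4 and the unfolded protein response 13 rose (46.4%, beside 5.45% of all genes) and 1 fell, with a median of 0.17. Against the other mimics 15 were higher (53.6%, beside 8.19% of all genes) and 1 lower (3.57%, beside 10.3%).

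The chaperone gene Hspa5, the best known marker of this response, read 13.37, 13.36 and 13.50 under Let-7b and 13.04, 13.04 and 13.06 in the control (0.37 ± 0.05, adjusted p = 1.6e-05). Its groups were far apart next to their spread, although the rise was 1.29-fold. Hsp90b1 rose by 0.25, the cochaperones Dnajb9 and Dnajc3 by 0.58 and 0.40, and Herpud1, Sel1l and Edem1, which act in the degradation of misfolded proteins, by 0.57, 0.40 and 0.39. The call was lost for Hsp90b1 without Let-7b replicate 3 or control replicate 2 (adjusted p up to 0.085) and for Sel1l without control replicate 2 (0.062). The larger changes were in Atf3 (9.84, 9.30 and 10.03 against 8.74, 8.71 and 8.44, 1.1 ± 0.21), the cystine transporter Slc7a11 (11.28, 10.88 and 11.45 against 10.07, 10.19 and 10.17, 1.06 ± 0.17) and Ddit3, the death-related factor CHOP (9.80, 9.58 and 10.16 against 9.0, 8.98 and 8.96, 0.87 ± 0.14). In all 3 the lowest Let-7b value exceeded the highest control value.

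Genes of amino acid supply in the list went different ways. Beside Slc7a11, the serine synthesis enzyme Psph (0.35) and the transporter subunit Slc3a2 (0.18) rose, calls that were lost when any 1 of 3 and of 5 single replicates was left out (adjusted p up to 0.086 and 0.16). Atf4 (-0.14), Asns (-0.17), Trib3 (-0.20), Chac1 (-0.06), Psat1 (-0.10), Mthfd2 (-0.13), Slc7a5 (-0.08) and Shmt2 (-0.11) were not called, and Phgdh, the first enzyme of serine synthesis, fell by 0.30. The call for Phgdh was lost without Let-7b replicate 1, control replicate 2 or control replicate 3 and with only Let-7b and control values (adjusted p up to 0.16). Under the other mimics the list median ran from -0.18 (miR-29a) to 0.17 (miR-22), and Ddit3 was also called higher under miR-1, miR-22 and miR-365.

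The ER stress element, the letters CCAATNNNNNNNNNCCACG read on both strands, occurred in 21 of 15614 measured genes with a promoter window (0.134%). Of 13 risen members of the list with a window 3 held it, namely Hspa5, Hsp90b1 and Dnajc3, and of all 27 members with a window 5 did. A shorter element of C/EBP and ATF factors, TGATGNAA, was present in 565 of the 15614 (3.62%) and in 3 of the same 13 (23.1%). Of all 27 members with a window 7 held this shorter element (25.9%), so it was not more frequent among the risen members. Promoters of Hspa5 and Hsp90b1, with the ER stress element in capitals, and of Slc7a11, with the shorter element in capitals, are printed as the 250 bases before the start (GRCm38.p6).
Hspa5 (chr2:34771840-34772089, forward strand): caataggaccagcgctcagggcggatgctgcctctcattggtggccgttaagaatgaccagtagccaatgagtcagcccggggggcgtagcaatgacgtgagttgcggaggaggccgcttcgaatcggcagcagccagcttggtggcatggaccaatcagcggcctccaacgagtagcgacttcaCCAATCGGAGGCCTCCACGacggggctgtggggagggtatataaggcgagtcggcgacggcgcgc
Hsp90b1 (chr10:86705445-86705694, reverse strand): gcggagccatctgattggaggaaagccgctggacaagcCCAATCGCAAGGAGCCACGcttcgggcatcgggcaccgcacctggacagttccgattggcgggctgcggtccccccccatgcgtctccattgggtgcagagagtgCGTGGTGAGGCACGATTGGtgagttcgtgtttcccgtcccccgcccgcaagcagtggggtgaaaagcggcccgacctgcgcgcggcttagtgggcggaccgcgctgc
Slc7a11 (chr3:50443614-50443863, reverse strand): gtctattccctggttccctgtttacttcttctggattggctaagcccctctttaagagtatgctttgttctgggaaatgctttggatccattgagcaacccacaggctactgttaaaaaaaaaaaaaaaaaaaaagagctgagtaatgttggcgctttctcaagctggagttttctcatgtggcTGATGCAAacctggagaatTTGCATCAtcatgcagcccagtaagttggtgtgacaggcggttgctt
Hsp90b1 and Slc7a11 each hold 2 matches, 1 of them on the other strand.

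**Figure D3:**
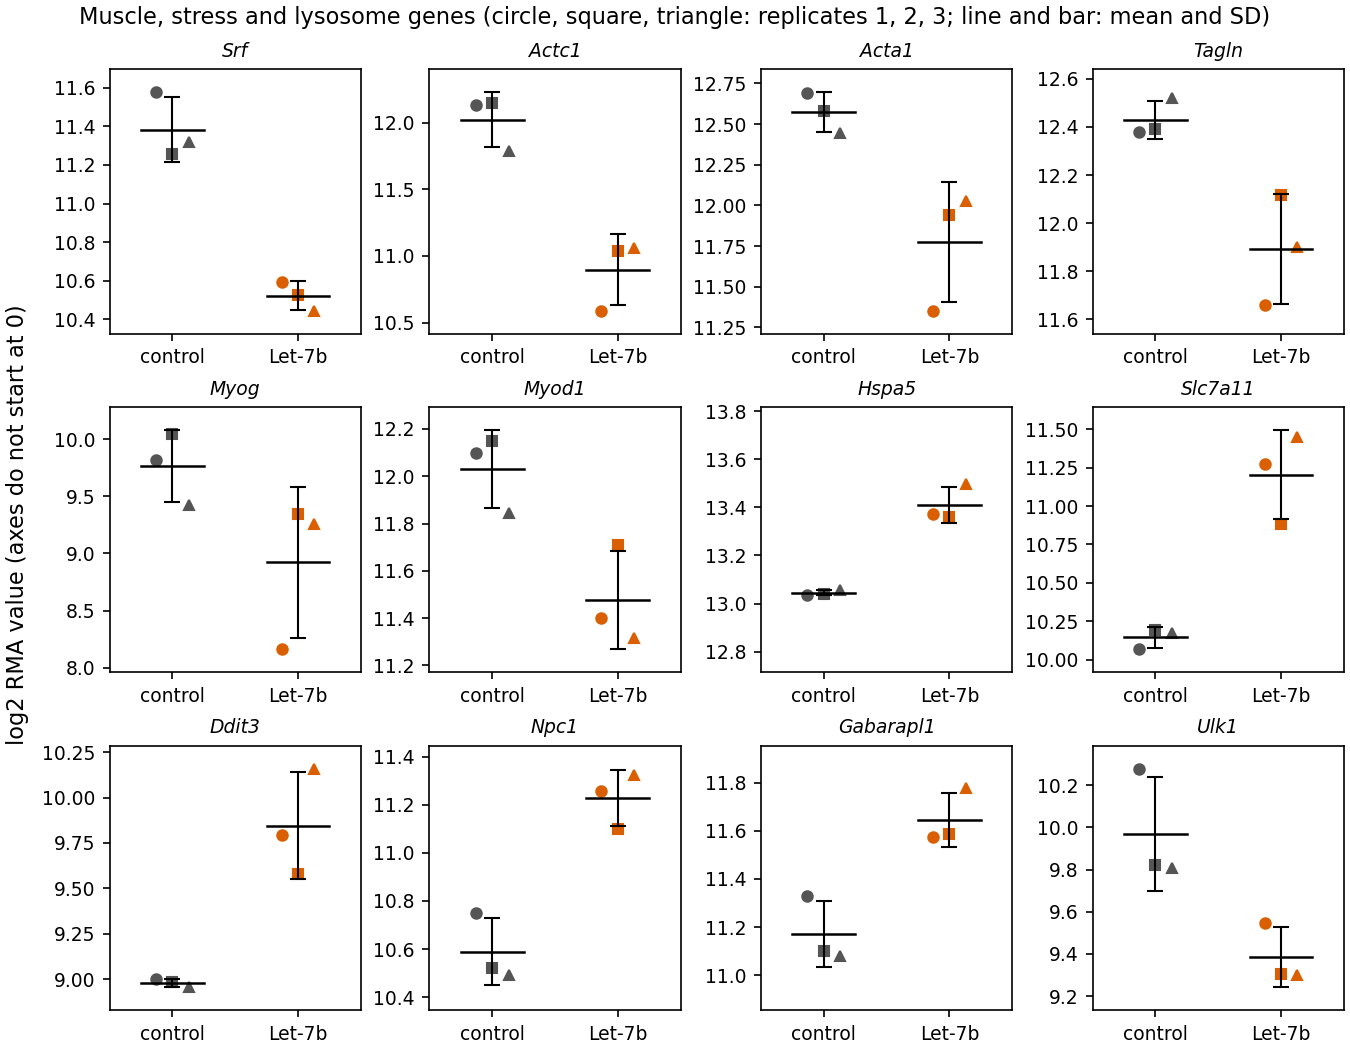
The log2 values of 12 muscle, stress and lysosome genes are plotted for the 3 control values (grey) and the 3 Let-7b values (orange), with lines for means and bars for 1 SD. Srf, the actins and Ulk1 sit lower under Let-7b and the stress genes higher, while Myog spreads from 8.16 to 9.34 within the Let-7b group.

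Lysosome and autophagy genes rose in 11 of 27 cases (40.7%, beside 5.45% of all genes) and fell in 1, with a median of 0.23 and single values of 0.21, 0.18 and 0.33. Npc1, which exports cholesterol from lysosomes, read 11.26, 11.10 and 11.32 against 10.75, 10.52 and 10.49 (0.64 ± 0.10, adjusted p = 0.00016). The glucosidase Gaa (0.53), the proteases Ctsb (0.36) and Ctsd (0.37), and the autophagosome proteins Gabarapl1 (0.48) and Map1lc3b (0.46) rose as well. Ulk1, the kinase that starts autophagy, was the member that fell, with 9.55, 9.30 and 9.30 against 10.28, 9.82 and 9.81 (-0.58 ± 0.13, adjusted p = 0.003). The count of 11 was 7 without Let-7b replicate 3 and 6 without control replicate 2, with the calls for Ctsb (both omissions) and Ctsd (the first) among those lost.

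Set against the other mimics 5 of 27 lysosome genes were higher (18.5% beside 8.19% of all genes) and 1 lower, and the list medians of the other mimics ran from 0.02 (miR-145) to 0.29 (miR-22). The count of 5 was 1 without Let-7b replicate 3. Gabarapl1 differed from the other mimics by 0.62 ± 0.08, Npc1 by 0.17 ± 0.08 (not called). The CLEAR palindrome TCACGTGA was searched on both strands. It was in 1.52% of measured genes with a window, in 2.21% of the lowered ones and in 4.62% of the raised ones. The palindrome was in 2 of the 9 raised lysosome genes with a window (22.2%). Of all 22 members of the list with a window 5 held it (22.7%), so its share was alike whether or not a member had to be raised. The 250 bases before the start of Ctsd, the larger of the raised pair by change, show it in capitals (GRCm38.p6).
Ctsd (chr7:142387828-142388077, reverse strand): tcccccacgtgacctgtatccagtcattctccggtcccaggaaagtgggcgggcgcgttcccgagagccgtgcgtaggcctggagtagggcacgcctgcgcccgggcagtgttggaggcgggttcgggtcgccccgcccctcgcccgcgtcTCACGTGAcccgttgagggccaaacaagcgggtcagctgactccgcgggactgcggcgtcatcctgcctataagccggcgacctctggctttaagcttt

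**Figure D4:**
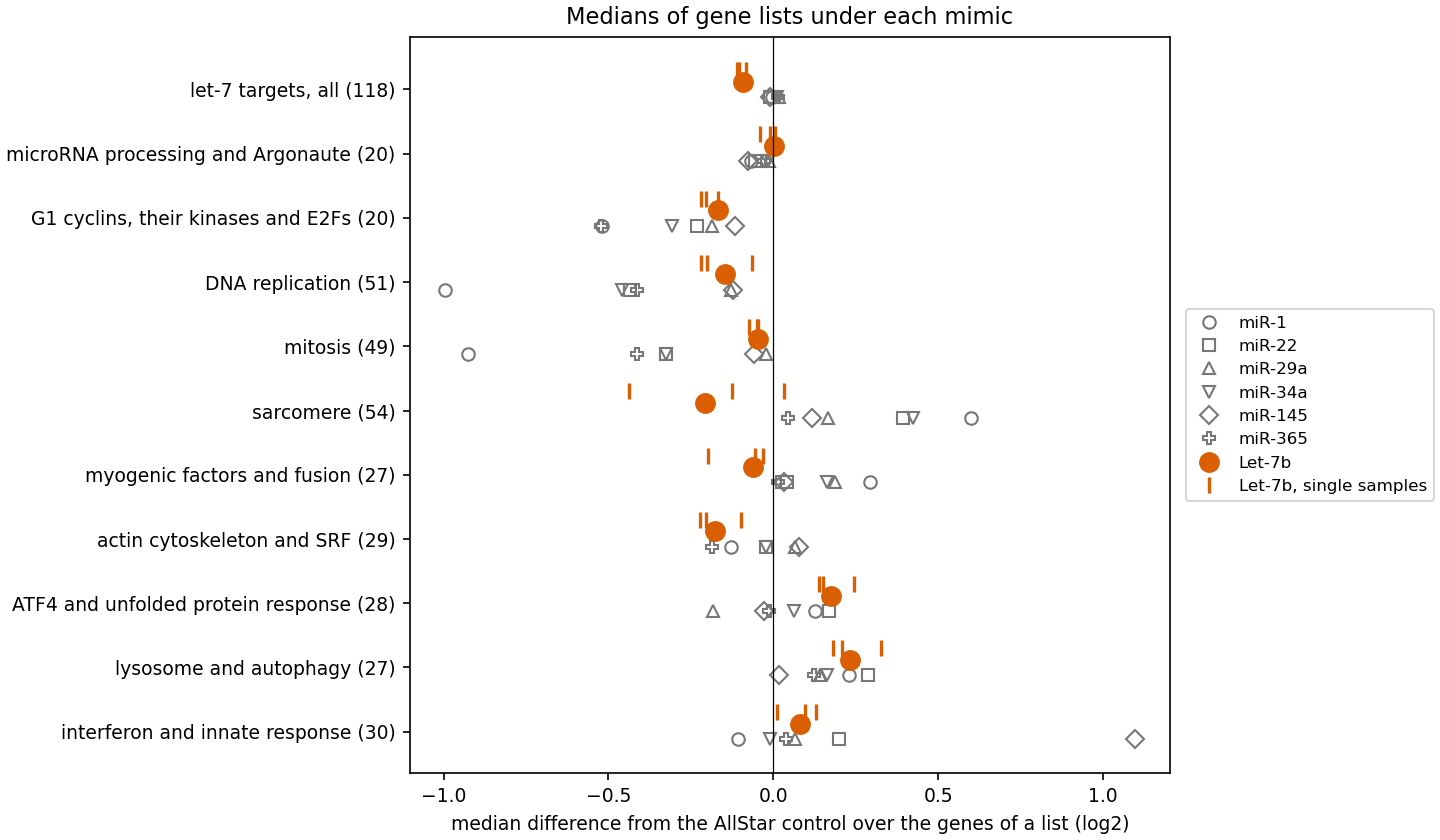
Medians of the log2 difference from the control are plotted for 11 gene lists, with the number of measured genes in brackets. Orange circles are Let-7b, orange ticks its 3 single values, and grey symbols the other 6 mimics, all against the same control values. The sarcomere median lies left of 0 for Let-7b, although its replicate 3 (0.03) lies right of it, and right of 0 for the others. DNA replication genes lie far left for miR-1.

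In the list of Ras, MAP kinase and feedback genes 2 of 29 fell (6.9%, near the 5.46% of all genes), Nras and Rras (-0.53 ± 0.08). In the same list 4 rose (13.8%, beside 5.45%), and the median was 0.11. Spred1, a brake on Ras (0.55), and Rasa1, a Ras GTPase activating protein (0.40), were among the 4, together with Mras (0.39) and Etv5, a transcription factor induced by MAP kinase signals (0.93 ± 0.16, adjusted p = 0.00038). The call for Rasa1 was lost without Let-7b replicate 2 or 3 or control replicate 2 or 3 (adjusted p up to 0.095). Immediate early genes Egr1 (0.09), Fos (0.20) and Jun (0.06) were not called.

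Genes of the interferon response were not called. Of 30 measured, 0 passed and 0 had an unadjusted p under 0.05 in limma, with a median of 0.08. Without the miR-145 group in the model 7 had an unadjusted p under 0.05, and with only Let-7b and control values 8 did, of which 1 passed in each case. Under the alternative settings at most 1 passed in each direction. Under miR-145 the same list had a median of 1.1.

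Of 24 p53 target genes 4 rose (16.7%, beside 5.45% of all genes) and 1 fell. Gadd45a, a growth arrest gene, rose by 0.81 ± 0.12 (adjusted p = 9.2e-05), Trp53inp1 by 0.74 ± 0.12 (adjusted p = 0.00014) and Ddit4, an inhibitor of mTOR, by 0.59 ± 0.11 (adjusted p = 0.00056). Mdm2 read 10.42, 10.24 and 10.47 against 10.58, 10.24 and 10.27 and was not called (0.01 ± 0.14). Against the other mimics 12 of the 24 (50%, beside 10.3% of all genes) were lower under Let-7b and 3 (12.5%, beside 8.19%) higher. Without Let-7b replicate 3 the latter count was 1.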

How the data were processed

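The 29 arrays were deposited as log2 values, 1 per probe set, made by the authors with RMA in Affymetrix Expression Console 1.1 per the submitters' processing notes. RMA equalises the quantiles of arrays, so a shift common to all genes cannot be seen. Filters and annotation build are not given in the sources used here. The 35556 probe sets split into 21789 with a single gene symbol, 1621 with more than 1 and 12146 without any. For 999 genes with several probe sets the brightest on average was used, which left 19938 genes.

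Technical replicas of the control were averaged with the array of the same number (r between 0.9958 and 0.9963). One linear model with 8 groups and 24 values was fitted in limma 3.58.1 (R 4.3.3) with a variance trend, so that all groups share 1 estimate of the spread, and Let-7b was compared with the control and with the mean of the other 6 mimics. All p-values are 2-sided and Benjamini-Hochberg adjusted over all genes within a comparison, with a threshold of 0.05, and errors are standard errors of log2 differences. The fit was tested on simulated data.

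Named are the 20 largest decreases and 12 largest increases against the control among called genes whose values did not overlap and whose higher mean exceeded the background level, the 10 and 5 largest against the other mimics among genes called in both comparisons with the same filter, and called members of gene lists. Lack of overlap in the genes named by size thus follows from this choice. The comparison, the lists and the named groups were chosen with earlier results of these data known, so a pattern in a list is a description. No fold is given where the lower group lies below the background level. Promoter and microRNA sequences are from RefSeq tables of GRCm38.p6. The number of arrays limits the precision. Alternatives tried were the replicate number as a block, other sets of samples and treatments of the technical replicas, filters, variance models, scalings and probe set rules, array weights, and leaving out each replicate. Target sites in 3′ regions and sequences of transcripts were not analysed here, and the untransfected cultures entered no test.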

Additional observations from a re-analysis of the deposited data

Results flagged for a closer look

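The gene comparisons leave out probe sets with no listed gene. In the same model, fitted to all probe sets, 256 of 12146 such probe sets (2.11%) differed between Let-7b and the control at an adjusted p under 0.05, 151 of them lower and 105 higher under Let-7b. Of these 256, 245 lay above the background level, with differences from -1.14 to 1.62 on the log2 scale.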

How the results depend on the processing

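The count of genes called against the control was 2176. It was 3299 with a replicate block, 4619 with array weights, and between 1380 and 1932 when 1 replicate was left out, where the smallest count was that without Let-7b replicate 3. Other settings gave 2034 (median centring) to 2563 (technical pairs as a random block). Against the other mimics the count was 3682, between 2484 and 2936 without 1 Let-7b replicate, 4865 with a replicate block and 4810 with array weights. None of the 2176 calls changed sign under any setting. The main fit did not treat replicate numbers as pairing the samples. Residuals of Let-7b and control values of the same number correlated at 0.14, 0.08 and 0.12, above 0.1 in 2 of 3 pairs. Among values of other groups, all 3 Let-7b values and 23 of all 24 values correlated best with 1 of their own number. The number thus marks a shared part of the spread that the main fit leaves in. The replicate block, which takes it out, gave the 3299 calls above. The lower share of calls was 47.6% after further quantile normalization and 54.5% after median centring, beside 50%. Shares over all genes include dim genes. Without the 40% of genes with the lowest mean, 1275 of 11963 genes were lower and 1160 higher, larger shares than over all genes. List shares a little above those of all genes are to be read beside these. In the lists, decreases in DNA replication numbered 5, but 12 with only Let-7b and control values fitted or with a replicate block and 22 with array weights. Decreases in mitosis numbered 4, but 8 with only those values and 9 with array weights. Decreases in sarcomere numbered 7, but 14 with a replicate block and 11 with array weights or technical pairs as a random block. Decreases in the actin list numbered 9, but 15, 16 and 6 with a replicate block, array weights and no variance trend. Increases in lysosome genes numbered 11, but 20 with array weights. Decreases in myogenic factors and fusion numbered 2, but 10 with a replicate block and 5 with array weights or technical pairs as a random block. Increases in the Ras and MAP kinase list numbered 4, but 7 with a replicate block and 12 with array weights. Of 159 named genes 113 kept their call under every setting run for them. Of 2860 values of named genes under alternatives 2675 kept their side of the threshold, 185 did not, and 0 reversed. The cause of these changes was not tested. With 3 values a group, a difference that was not called is not shown to be absent, and genes near background carry compressed differences.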

Other observations

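Of 29 sterol and fatty acid genes 2 fell (6.9%) and 1 rose (3.45%), shares near the 5.46% and 5.45% of all genes. The gene that rose was Insig1, an anchor that holds back sterol synthesis in the endoplasmic reticulum, with a mean of 12.12 ± 0.14 (SD, n = 3) under Let-7b and control values of 11.01, 11.05 and 11.02 (1.09 ± 0.20, adjusted p = 0.00053). Hmgcs1, an early enzyme of sterol synthesis, fell by 0.52. All Let-7b values of Insig1 lay above all control values. Of 26 glycolysis and hypoxia genes 4 fell (15.4%) and 1 rose (3.85%). Slc16a3, the lactate exporter, read 8.78, 9.26 and 8.79 against 9.70, 10.03 and 10.00 (-0.96 ± 0.19, adjusted p = 0.0015), and Pfkl, a phosphofructokinase, fell by 0.60.

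Other single genes that changed were Hgf and Rora. Hgf, the growth factor that activates muscle satellite cells, read 9.93, 9.99 and 10.11 against 9.18, 8.52 and 8.74 (1.2 ± 0.24, adjusted p = 0.0013), and the nuclear receptor gene Rora rose by 1.11 ± 0.10. Of 45 extracellular matrix genes 5 rose (11.1%, beside 5.45% of all genes) and 3 fell (6.67%, beside 5.46%), the basement membrane genes Lamc1 (0.56) and Nid1 (0.45) among those that rose. The 3 decreases were 0 without Let-7b replicate 1 or control replicate 1 and 1 without Let-7b replicate 3 or control replicate 3, and the 5 increases were 3 without control replicate 2. Of 29 genes of TGF-beta, activin and BMP signalling 3 rose and 3 fell (10.3% each, beside 5.45% and 5.46% of all genes). The type II receptor gene Tgfbr2 rose by 0.57 while Tgfbr1 fell by 0.50. The 3 decreases were 1 without Let-7b replicate 1 or control replicate 1.

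The untransfected cultures, 1 array of myoblasts and 1 of myotubes, give values without a test. Over all genes the myotube value was the higher in 46.6%, with a median difference of -0.02. For genes lower under Let-7b it was the higher in 52.8% (median 0.03), and for genes higher under Let-7b in 60.5% (median 0.12).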
